A study of Mus musculus with 12 samples.

Results

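To ask whether oxaliplatin (Oxali) raises the machinery that receives interferon γ (IFNγ), and whether IFNγ feeds back on it, 9 genes were followed: the receptor chains Ifngr1 and Ifngr2, the kinases Jak1 and Jak2, and the transcription factors Stat2, Stat3, Stat5a, Stat5b and Stat6. They were chosen by symbol from the 55216 genes of the count table, and all 9 were among the 13177 genes that passed the filter on low counts. The RNA came from Myc-CaP cells, a Myc-overexpressing prostate cancer line from FVB/NJ mice, after 48 h of treatment. The 12 libraries fell into 6 groups of 2: untreated cells (Ctrl), IFNγ at 200 pg (IFN200) or 2000 pg (IFN2000), Oxali at 2 μM, and Oxali with IFNγ at 200 pg (Combo200) or 2000 pg (Combo2000). Every group was the same line without any added genetic change, and the labels give IFNγ as a mass with no volume. Groups were taken from the titles. For the single treatments the agent label disagrees with the title: libraries titled IFN200 carry the agent Oxali, those titled IFN2000 carry IFNγ 200 pg, and those titled Oxali carry IFNγ 2000 pg. If the agent labels were right, the 3 single-treatment names below would change places, while comparisons of the combinations with each other and with Ctrl would keep theirs. Nlrc5, an IFNγ-inducible activator of class I genes, had 3 and 2 counts in the libraries titled Oxali, 16 and 9 in those titled IFN200, and 74 and 60 in those titled IFN2000. Against Ctrl, 8911 of the 13177 genes were called in the libraries titled Oxali, 15 in those titled IFN200 and 2221 in those titled IFN2000, against 9052 in Combo200 and 9113 in Combo2000.

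IFNγ binds a receptor made of IFNGR1, which holds the ligand, and IFNGR2, which completes the signalling complex. JAK1 is bound to the first chain and JAK2 to the second, and once the chains meet the kinases phosphorylate each other, the receptor and then a STAT protein, which moves to the nucleus and switches on genes through GAS elements. STAT2 belongs mainly to the type I interferon pathway, in which it forms the ISGF3 complex with other factors on ISRE elements. STAT3 serves cytokines of the interleukin 6 family, STAT5A and STAT5B serve prolactin, growth hormone and interleukin 2, and STAT6 serves interleukin 4.

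Library totals ran from 18749975 to 25931516 counts, so that 3 counts, the limit that a count of 0 allows, equalled 0.111 to 0.167 CPM (reads of a gene relative to the TMM-scaled library total). This limit and the intervals below cover counting error or the fitted spread only. Nothing in the labels says that the 2 libraries of a group came from separate cultures, so p-values measure the spread between these libraries. Of the markers of the labelled line, Myc had 2268 to 3835 counts per library, Krt8 had 353 to 628, Epcam was at 0 in every library, and Krt18 and Cdh1 did not exceed 6 counts. The summed level of 15 T cell markers was 24.1 CPM in IFN2000 replicate 2 and 1.16 CPM in its partner. It was 0.574 to 1.13 CPM in the other libraries without Oxali and 2.96 to 4.56 CPM in the 6 with it. Gzmb gave 175 of the counts in IFN2000 replicate 2 and Ifng, the gene of IFNγ itself, gave 117. Both were at 0 in its partner. Combo200 replicate 3 had 9 counts of Ifng and 7 of Gzmb. The summed level of 9 heart muscle markers was 10.3 CPM in IFN200 replicate 1, against 1.19 CPM in its partner, 0.835 to 1.27 CPM in the other libraries without Oxali and 3.53 to 6.26 CPM in the 6 with it. Tnnt2 gave most of the heart muscle counts in the libraries with Oxali (68 to 125 per library), while Actc1 and Myl2 had at most 2. Lck (24 to 40 per library), Cd28 (20 to 36) and Trac (9 to 24) gave most of the T cell counts in the libraries with Oxali. In the same libraries Cd3e, Cd3d, Cd3g, Cd2, Ptprc and Trbc2 had at most 2. Both sums were thus higher with the drug, and the part of these transcripts in the results was not tested.

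In untreated cells the transcripts of the chain differed widely in level. Only RNA at 48 h was measured, so protein, surface receptor, phosphorylation and earlier times were not read. Per kilobase of exon, the mean level in Ctrl was highest for Jak2 (36.5 ± 0.680 CPM per kb, SD, n = 2), followed by Jak1 (24.5 ± 0.0752), Stat6 (23.6 ± 0.525), Stat5b (19.1 ± 0.644) and Ifngr1 (12.7 ± 0.666). Stat3 (6.27 ± 0.185 CPM per kb), Stat5a (5.50 ± 0.00540) and Stat2 (4.11 ± 0.0305) were lower, and Ifngr2, at 0.298 ± 0.0794 CPM per kb, was the lowest of the 9 in every group. No neighbours in this order had overlapping libraries in Ctrl. Per kilobase of exon, Ifngr1 passed Stat5b with Oxali, and Stat5a and Stat2 both passed Stat3. The order became Jak2, Jak1, Stat6, Ifngr1, Stat5b, Stat5a, Stat2, Stat3 and Ifngr2. In Combo2000 Stat2 (14.2 ± 0.695 CPM per kb) stood above Stat3 (11.99 ± 0.271) and Stat5a (11.7 ± 0.174), and the libraries of the last pair overlapped. All these orders use the union of exons as length, and genes close in level can change places with another length. The longest transcript is 3958 bases against a union of 7133 for Stat5a. It is 4906 against 7227 for Jak1, 6042 against 9527 for Stat3 and 4397 against 5926 for Stat2. For Jak2 both are 5030.

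**Figure D1:**
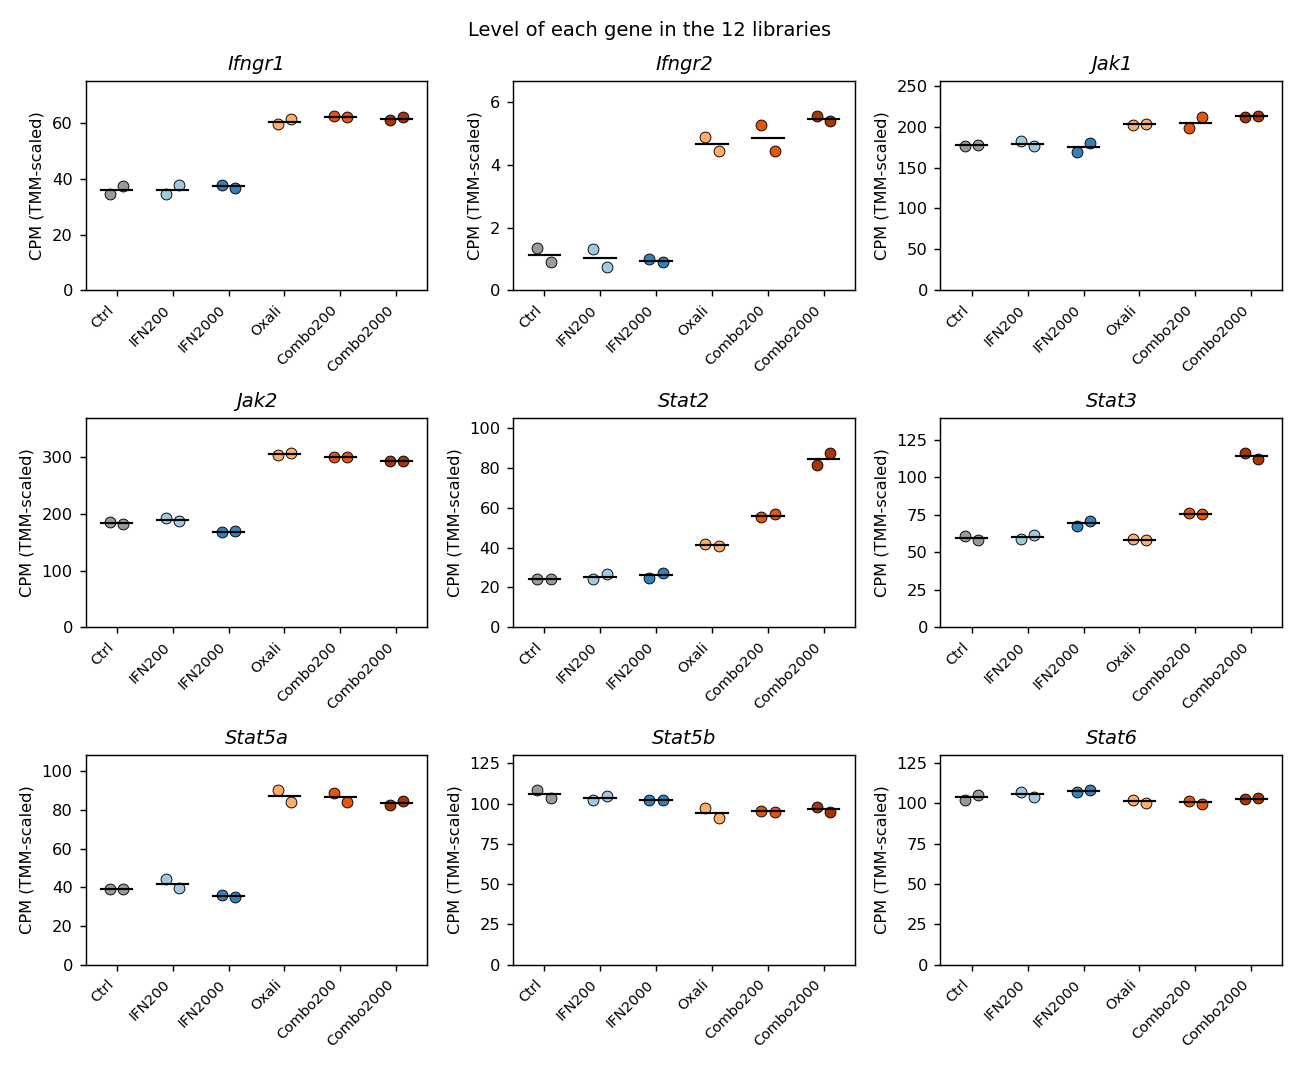
Level of each of the 9 genes (vertical axis, CPM after TMM scaling, starting at 0) in the 12 libraries (points) of the 6 groups, with group means as lines. Ifngr1, Ifngr2, Jak2, Stat2 and Stat5a lie higher in all 6 libraries with Oxali than in the 6 without, Stat2 and Stat3 climb further in the combinations, Stat5b lies slightly lower with Oxali, and Stat6 stays near one level.

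Oxali raised both receptor chains, both kinases and 2 of the 5 STAT genes. Of the 9 genes, 6 were higher and 1, Stat5b, was lower in Oxali than in Ctrl at an adjusted p under 0.05 (edgeR's quasi-likelihood test, Benjamini-Hochberg adjustment), in a comparison in which 67.6% of all genes tested were called, 34.8% as higher and 32.8% as lower. Of the calls 51.5% were higher, or 63.5% with library totals alone. The median log2 fold change of the 9 was 0.73, against 0.02 for all genes tested. Since calls were this common in the comparison, the size of each change is given below.

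The receptor chain that was scarcest rose most. Ifngr2 (chromosome 16, 91547072 to 91565623, GRCm38) had 1.34 and 0.912 CPM in Ctrl, 1.30 and 0.751 in IFN200 and 0.985 and 0.892 in IFN2000. It had 4.88 and 4.44 CPM in Oxali, 5.28 and 4.44 in Combo200, then 5.56 and 5.39 in Combo2000. Every library with Oxali stood above every library without it, on 17 to 30 counts per library without Oxali and 93 to 150 with it. The change in Oxali against Ctrl was 2.06 on the log2 scale (SE 0.23, adjusted p = 1.48e-07), a 4.17-fold rise. It was 2.23 (SE 0.22) between Combo200 and IFN200 (2.68 without IFN200 replicate 1), and 2.54 (SE 0.21) between Combo2000 and IFN2000.

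Ifngr1 (chromosome 10, 19591949 to 19610229) followed the drug in smaller steps. Its levels were 34.7 and 37.4 CPM in Ctrl, 34.4 and 37.7 in IFN200 and 37.7 and 36.8 in IFN2000. They were 59.6 and 61.3 CPM in Oxali, 62.6 and 62.1 in Combo200, then 61.2 and 62.0 in Combo2000. The 2 ranges did not meet. Oxali added 0.74 (SE 0.05, adjusted p = 2.34e-10) to Ifngr1 on the log2 scale, a 1.68-fold rise, and the drug step was 0.79 (SE 0.05) with IFNγ at 200 pg and 0.72 (SE 0.05) at 2000 pg.

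The bases before the RefSeq starts of 3 members are shown here: Ifngr2, with the largest change in Oxali, and Stat2 and Stat3, with the largest changes when IFNγ was added to it. All 9 members were found in the RefSeq table of promoters (GRCm38.p6). Windows reach from 250 bases before to 50 bases after each start, and 5 motifs were searched on both strands: a GAS element (TTCNNNGAA), an ISRE core (GAAA, any 2 bases, GAAA), a κB site (GGG, any 2 bases, TTTCC), an E-box (CACGTG) and a GC box (GGGCGG). The capitals mark matches in the 250 bases before the start of Ifngr2 (chr16:91546809-91547058, plus strand), Stat2 (chr10:128270248-128270497, plus strand) and Stat3 (chr11:100939541-100939790, minus strand), each written 5′ to 3′ on the strand of the gene.
Ifngr2: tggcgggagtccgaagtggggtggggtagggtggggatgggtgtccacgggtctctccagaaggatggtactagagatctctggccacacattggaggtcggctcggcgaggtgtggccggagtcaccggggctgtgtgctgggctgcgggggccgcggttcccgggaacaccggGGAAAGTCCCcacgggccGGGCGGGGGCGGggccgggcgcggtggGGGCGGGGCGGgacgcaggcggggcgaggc
Stat2: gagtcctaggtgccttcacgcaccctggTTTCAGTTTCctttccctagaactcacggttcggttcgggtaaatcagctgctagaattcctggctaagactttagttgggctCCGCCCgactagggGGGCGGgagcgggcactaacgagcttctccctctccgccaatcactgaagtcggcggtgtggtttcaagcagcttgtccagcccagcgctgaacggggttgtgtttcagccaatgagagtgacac
Stat3: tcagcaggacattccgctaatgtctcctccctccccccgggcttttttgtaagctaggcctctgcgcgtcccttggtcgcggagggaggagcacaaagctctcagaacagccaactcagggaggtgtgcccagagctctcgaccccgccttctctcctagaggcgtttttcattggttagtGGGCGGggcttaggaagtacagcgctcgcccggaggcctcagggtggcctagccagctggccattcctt
The Ifngr2 stretch held a κB match, GGAAAGTCCC, whose first base is at -75 from the start, and 4 GC boxes between -57 and -25. Stat2 held an ISRE core match, TTTCAGTTTC, at -222 and GC boxes at -139 and -125. Stat3 held 1 GC box, at -69, and no other match. A κB match was present in 1.63% of the 32851 promoter windows in the table, an ISRE core in 3.44%, a GAS element in 8.30%, an E-box in 7.15% and a GC box in 35.7%. Among the 9 members only Ifngr2 held the κB letters, only Stat2 the ISRE core, and none a GAS element or an E-box. The members with GC boxes alone included Ifngr1, Jak1 and Jak2, which rose with Oxali, and Stat3, which was not called. These are matches of letters in one window, not measured binding sites.

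Jak2 rose with the drug by nearly the same factor as Ifngr1, and Jak1 by much less. Jak2 (chromosome 19, 29251828 to 29313080) stood at 186 and 181 CPM in Ctrl, 192.5 and 187 in IFN200, and 169 and 169 in IFN2000. With the drug it stood at 304 and 307 CPM in Oxali, 300.2 and 300.2 in Combo200, then 293 and 294 in Combo2000. The highest library without the drug was far below the lowest with it. The log2 change in Oxali against Ctrl was 0.73 (SE 0.04, adjusted p = 9.53e-13), and the drug step was 0.66 (SE 0.04) in the presence of IFNγ at 200 pg and 0.80 (SE 0.04) at 2000 pg.

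Jak1 (chromosome 4, 101152367 to 101265282), the kinase of the ligand-holding chain, moved within a narrow band. It measured 177 and 178 CPM in Ctrl, 182 and 176 in IFN200, and 169.6 and 180.1 in IFN2000. It measured 203 and 204 CPM in Oxali, 198 and 212 in Combo200, then 212 and 213 in Combo2000. Libraries with and without Oxali again did not overlap, but the change in Oxali against Ctrl was 0.20 (SE 0.04, adjusted p = 0.000356), a rise of 14.6%.

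Among the STAT genes, Stat5a had the largest response to Oxali alone. Stat5a (chromosome 11, 100859351 to 100885169) went from 39.3 and 39.2 CPM in Ctrl to 90.2 and 84.2 in Oxali. It was at 44.3 and 39.4 CPM in IFN200 and 35.8 and 35.0 in IFN2000, and at 88.9 and 84.3 in Combo200, then 82.7 and 84.4 in Combo2000. The levels split by the drug and by nothing else as clearly. The log2 change in Oxali was 1.15 (SE 0.06, adjusted p = 6.31e-13), that is 2.22-fold.

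Stat5b, its close paralog and neighbour on chromosome 11 (100780731 to 100850724), went the other way by a small step. Its libraries measured 108 and 103 CPM in Ctrl and 97.4 and 91.3 in Oxali. All 6 libraries with Oxali, at 91.3 to 97.8 CPM, lay below the 6 without, at 102 to 108 CPM. The log2 change in Oxali was -0.17 (SE 0.04, adjusted p = 0.00237), a fall of 10.8%, and it was -0.04 (adjusted p = 0.439) when libraries were scaled by their totals alone, a scaling that moved the median of all genes tested from 0.02 to 0.14. The coding sequences of Stat5a and Stat5b are similar, so how reads that fit both were assigned makes the split between them uncertain.

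Stat2 (chromosome 10, 128270559 to 128292849), the type I interferon STAT, rose with Oxali by 0.76 on the log2 scale (SE 0.07, adjusted p = 3.32e-09). Its libraries were at 24.5 and 24.2 CPM in Ctrl and 41.7 and 41.0 in Oxali. Stat3 (chromosome 11, 100885098 to 100939540) was not called, with 61.0 and 58.5 CPM in Ctrl, 58.8 and 57.9 in Oxali, and a log2 change of -0.03 (95% interval -0.13 to 0.07, adjusted p = 0.555). The Stat3 libraries of these 2 groups overlapped. Stat6 (chromosome 10, 127642986 to 127660957), the interleukin 4 STAT, measured 102 and 105 CPM in Ctrl, 102 and 100.3 in Oxali, and between 99.6 and 108 in the other groups. Its change in Oxali was -0.03 (95% interval -0.12 to 0.05, adjusted p = 0.451), but 0.092 (adjusted p = 0.0464) with library totals alone.

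The same genes were raised by the drug when IFNγ was present, with Stat3 added. Against IFN200, Combo200 had 7 of the 9 genes higher and 1 lower, where 69.9% of all genes tested were called (36.5% higher, 33.5% lower). Against IFN2000, Combo2000 had 7 higher and 0 lower, where 72.3% were called (38.5% higher, 33.8% lower). Against Ctrl, both combinations had 7 higher and 1 lower, with 68.7% of all genes called in Combo200 (35.6% higher, 33.1% lower) and 69.2% in Combo2000 (35.7% higher, 33.5% lower). Averaged over the 3 IFNγ levels, the drug raised 7 of the genes and lowered 2, Stat5b by 0.12 (SE 0.02) and Stat6 by 0.06 (SE 0.02), in a test that called 81.9% of all genes (42.8% higher, 39.1% lower). The Stat6 value passed the threshold by little (adjusted p = 0.0247) and became 0.064 with library totals alone.

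**Figure D2:**
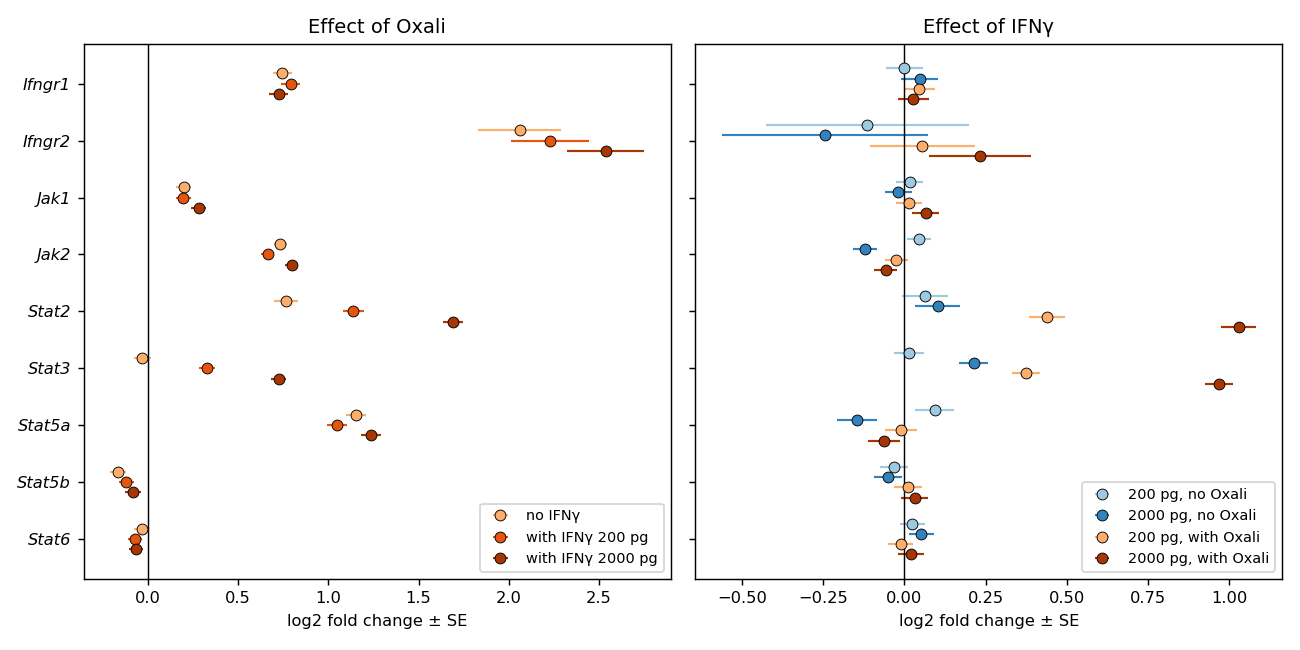
Log2 fold change (horizontal axis, points, with bars for the SE of the fit) of each gene for the addition of Oxali at 3 levels of IFNγ (left) and for the addition of IFNγ at 2 doses without and with Oxali (right). On the left the points of Stat2 and Stat3 spread out with the IFNγ dose, while those of Ifngr1, Jak1 and Jak2 stay close together. Those of Ifngr2 also climb with the dose, with the widest bars. On the right only Stat2 and Stat3 reach beyond 0.3, at 0.97 to 1.03 for 2000 pg with Oxali.

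At 48 h IFNγ alone had left most transcripts of the chain where they were. With IFN200, 0 of the 9 genes were called, where 0.114% of all genes tested were called. Of the 9, 0 had an unadjusted p under 0.05 and DESeq2 also called 0. For Ifngr2, the gene with the fewest counts, the 95% interval of the log2 change ran from -0.77 to 0.54. Changes within these bounds were not excluded at this depth. For the other 8 genes the interval stayed between -0.12 and 0.22.

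With IFN2000, 1 gene was higher and 1 lower, where 16.9% of all genes tested were called (8.39% higher, 8.47% lower). Stat3 went from 61.0 and 58.5 CPM in Ctrl to 67.8 and 70.6, with no overlap and a log2 change of 0.21 (SE 0.05, adjusted p = 0.00342). The change in Stat3 was 0.25 (adjusted p = 0.00579) without IFN2000 replicate 2, the library with T cell transcripts, and 0.18 (adjusted p = 0.0518) without Ctrl replicate 2. Jak2 fell by 0.12 on the log2 scale (SE 0.04, adjusted p = 0.0283), from 186 and 181 to 169 and 169 CPM, and the size stayed between -0.14 and -0.10 without any 1 library of Ctrl or IFN2000 and with DESeq2, although the call was then lost (-0.12, adjusted p = 0.130, without IFN2000 replicate 2). Stat2 was at 24.9 and 27.4 CPM, 0.10 above Ctrl (SE 0.07, adjusted p = 0.362; 0.17, adjusted p = 0.216, without IFN2000 replicate 2), and the interval for Ifngr2 was -0.91 to 0.42.

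Between the doses without the drug, IFN2000 against IFN200, Stat3 was higher by 0.20 (SE 0.04), Jak2 was lower by 0.17 (SE 0.04) and Stat5a was lower by 0.24 (SE 0.06), 3 of the 9 genes where 22.3% of all were called. Without IFN200 replicate 1, and so with 1 library in that group, the changes were 0.17 for Stat3 (adjusted p = 0.0579), -0.14 for Jak2 (0.0544) and -0.15 for Stat5a (0.158), none of them called.

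With Oxali present, IFNγ raised Stat2 and Stat3, more at the higher dose, and no other member was called. Combo200 against Oxali had 2 of the 9 genes higher and 0 lower, where 1.83% of all genes tested were called (1.58% higher, 0.25% lower), and Combo2000 against Oxali had the same 2 higher and 0 lower, where 4.36% were called (3.37% higher, 0.987% lower). Stat2 went from 41.7 and 41.0 CPM in Oxali to 55.4 and 56.6 in Combo200, then 81.5 and 87.3 in Combo2000. Its groups were fully apart at each step. The log2 changes of Stat2 against Oxali were 0.44 (SE 0.06, adjusted p = 3.41e-05) and 1.03 (SE 0.05, adjusted p = 1.18e-11).

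Stat3 went from 58.8 and 57.9 CPM in Oxali to 76.2 and 75.2 in Combo200, then 116 and 112 in Combo2000, also without overlap. Its log2 changes against Oxali were 0.37 (SE 0.04, adjusted p = 1.25e-05) and 0.97 (SE 0.04, adjusted p = 8.38e-13). The step between the combinations was 0.59 (SE 0.05) for Stat2 and 0.59 (SE 0.04) for Stat3, the 2 members called there, where 1.37% of all genes tested were called (1.21% higher, 0.167% lower). That comparison does not involve the libraries whose labels conflict.

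For the receptor and the kinases the added IFNγ gave small and uncalled changes in the presence of the drug. The log2 change in Combo2000 against Oxali was 0.03 for Ifngr1 (95% interval -0.07 to 0.13), 0.06 for Jak1 (-0.02 to 0.15) and -0.06 for Jak2 (-0.13 to 0.02). For Ifngr2 it was 0.23, with a wider interval of -0.10 to 0.56 and an adjusted p of 0.560. The interval for Stat5a ran from -0.16 to 0.04, that for Stat5b from -0.06 to 0.12 and that for Stat6 from -0.06 to 0.10.

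The interaction, the log2 change caused by IFNγ with Oxali minus that without it, was called for 1 gene at 200 pg, where 0.698% of all genes tested were called (0.562% higher, 0.137% lower), and for 2 at 2000 pg, where 2.72% were called (2.12% higher, 0.6% lower). At 2000 pg it was 0.93 for Stat2 (SE 0.09, adjusted p = 2.07e-06) and 0.76 for Stat3 (SE 0.06, adjusted p = 3.07e-07). Without IFN2000 replicate 2 these were 0.85 and 0.72, both called. At 200 pg the value for Stat3 was 0.36 (SE 0.06, adjusted p = 0.00718), and it was 0.33 (adjusted p = 0.0618) without IFN200 replicate 1 and 0.32 (adjusted p = 0.0741) without Ctrl replicate 1. Stat2 had 0.37 at 200 pg (SE 0.09), which did not pass (adjusted p = 0.0592). The interval for Ifngr2 at 2000 pg ran from -0.27 to 1.22, so neither its presence nor its absence could be read at these counts.

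On the linear scale both genes also stood above the sum of the single effects, a description with no test. For Stat2 the sum of the Ctrl level and the single changes at 2000 pg was 43.1 CPM, and the Combo2000 libraries measured 81.5 and 87.3. For Stat3 the sum was 67.9 CPM and the libraries measured 116 and 112. At 200 pg the sums were 42.4 CPM for Stat2 and 59.0 for Stat3, and both Combo200 libraries lay above them for each gene.

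Because Oxali moved partner genes unequally, the ratio of their levels per kilobase within a library changed. Ifngr2 amounted to 0.0150 to 0.0291 of Ifngr1 in the 6 libraries without Oxali and to 0.0541 to 0.0687 in the 6 with it. The ratio of Jak2 to Jak1 was 1.35 to 1.52 without and 1.98 to 2.17 with Oxali. Both ratios thus moved toward the chain and kinase of the second receptor subunit. The ratio of Stat5a to Stat5b was 0.266 to 0.337 without and 0.657 to 0.721 with the drug.

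Stat3 to Stat2 went in the opposite direction, from 1.43 to 1.69 without Oxali to 0.800 to 0.886 with it. These ratios do not depend on how libraries are scaled. Their absolute size depends on the lengths used, here the unions of exons, while the shift between libraries does not. In each of the 4 the libraries with and without Oxali did not overlap. The pairs were formed with the changes of their genes known, so the ratios are a description with no test. In the combinations the ratio of Stat3 to Stat2 stayed at the Oxali level, since IFNγ raised both genes alike.

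**Figure D3:**
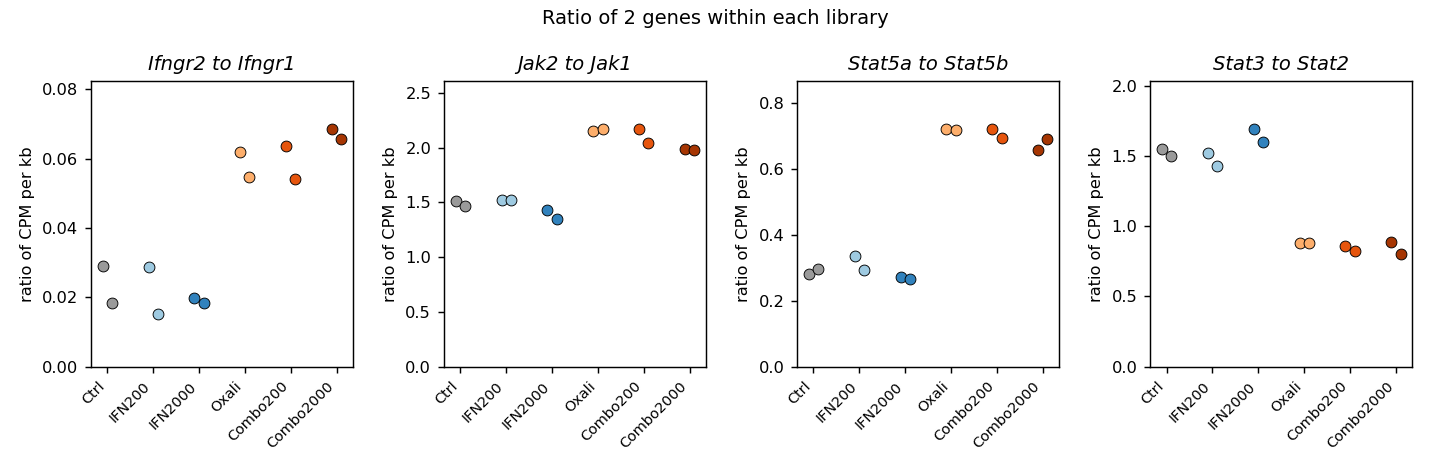
Ratio of the levels per kilobase of 2 genes within each library (vertical axes, starting at 0) in the 6 groups, 2 libraries each (points). In all 4 panels the 6 libraries with Oxali form a band apart from the 6 without, above it for Ifngr2 to Ifngr1, Jak2 to Jak1 and Stat5a to Stat5b and below it for Stat3 to Stat2.

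The wider pathway was read from 3 lists. Of 24 other cytokine receptor chains, 12 passed the filter, and Oxali raised 7 and lowered 3 of them (median log2 change 0.39, against 0.02 for all genes), where 67.6% of all genes tested were called. The rises were led by Il15ra, the interleukin 15 receptor chain (1.28, SE 0.15), Ghr, the growth hormone receptor that signals through JAK2 and STAT5 (0.90, SE 0.08), and Il4ra, which signals through STAT6 (0.82, SE 0.10). Among the falls were Il20rb (-2.45, SE 0.52) and Il2rg (-1.87, SE 0.73), both on at most 19 counts per library in these groups, and Ifnar1, a type I interferon receptor chain (-0.36, SE 0.05). The Il2rg call was lost with DESeq2 (adjusted p = 0.0758) and without Oxali replicate 2 (adjusted p = 0.140) or either Ctrl library. The type I partner chain Ifnar2 rose by 0.34 (SE 0.09).

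IFN2000 raised Il15ra by 1.08 (SE 0.15) and Ifnar2 by 0.35 (SE 0.09) and lowered Il6st, the shared gp130 chain upstream of STAT3, by 0.33 (SE 0.05). The Ifnar2 call was lost without either Ctrl library or IFN2000 replicate 3, where its change was 0.30 to 0.38. Il6st had 75.9 and 74.9 CPM in Ctrl, 58.1 and 62.1 in IFN2000, 112 and 114 in Oxali, and 125 and 117 in Combo2000. Its interaction at 2000 pg was 0.42 (SE 0.06, adjusted p = 0.000594), the only one called among the 12 chains, where 2.72% of all genes were called. Combo2000 against Oxali had 3 of the 12 chains higher and 0 lower, where 4.36% of all genes were called: Il15ra, Il4ra and Ifnar2, the last 2 of which DESeq2 did not call.

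Of 19 modulators of JAK and STAT signalling, all passed the filter, and Oxali raised 11 and lowered 3 (median 0.18), 14 of 19 where 67.6% of all genes were called. Usp18, a deISGylase that restrains type I receptor signalling, had 3 and 7 counts in Ctrl but 62 and 62 in Oxali. Nmi, a STAT-interacting protein, rose by 1.09 (SE 0.12). Socs1, the feedback inhibitor that binds JAK kinases, had 1.17 and 1.27 CPM in Ctrl, 2.35 and 2.48 in Oxali, 2.61 and 3.30 in IFN2000, and 11.56 and 12.03 in Combo2000. Its rise in Combo2000 against Oxali was 2.28 (SE 0.15), but its interaction of 1.01 (SE 0.30) did not pass (adjusted p = 0.0774). Socs3, the inhibitor induced by STAT3, was lower in Oxali by 0.41 (SE 0.07), as were Sh2b3 by 0.36 (SE 0.09) and the phosphatase gene Ptpn11 by 0.15 (SE 0.04; not called with library totals alone).

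IFN2000 called 4 of the 19 modulators higher (among them Usp18, Socs1 and Nmi) and Pias1, a SUMO ligase that binds STAT proteins, lower (-0.14, SE 0.05), where 16.9% of all genes were called and DESeq2 lowered the count from 5 to 2. Without IFN2000 replicate 2 the Usp18 change was 1.12 (adjusted p = 0.279) and that of Pias1 -0.14 (adjusted p = 0.167), neither called. Without Ctrl replicate 1 that of Pias1 was -0.07. Combo2000 against Oxali called 3 of the 19, Usp18, Socs1 and Nmi, all higher, where 4.36% of all genes were called. No modulator had a called interaction at 2000 pg, where 2.72% of all genes were called. Of the 19, 2 had an unadjusted p under 0.05 there.

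Of 21 genes known as STAT targets, 20 passed the filter, and Oxali raised 13 and lowered 2, where 67.6% of all genes were called (median 0.80, or 0.62 with the 2 genes that were at or under 3 counts in both groups set to 0). The list shares 3 genes with the modulators and 2 with the receptor chains. Irf1, a transcription factor induced by IFNγ, was at 38.6 and 37.0 CPM in Ctrl, 96.3 and 94.1 in Oxali, 94.6 and 93.9 in IFN2000 and 432 and 445 in Combo2000. Its interaction was 0.88 (SE 0.07, adjusted p = 7.58e-08). Gbp2, a guanylate-binding protein gene, was at 1.00 and 0.912 CPM in Ctrl, 3.36 and 2.86 in Oxali, 30.6 and 30.8 in IFN2000 and 286 and 293 in Combo2000.

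Lcn2, a target of STAT3 and NF-κB, rose by 2.16 with Oxali (SE 0.23), while Mcl1, a survival gene, was lower by 0.13 (SE 0.04; not called with library totals or upper-quartile scaling). Cxcl10, a T cell chemokine, had 4 and 2 counts in Ctrl, 18 and 20 in Oxali and 447 and 399 in Combo2000. Ciita, the class II activator, had 0 and 2 counts in Oxali and 48 and 41 in Combo2000. IFN2000 raised 8 of the 20 targets and lowered 0, where 16.9% of all genes were called, and Combo2000 against Oxali raised 9 and lowered 0, where 4.36% were. The interaction at 2000 pg was called for 4 of the 20, where 2.72% of all genes tested were called. The list medians for Combo2000 against Oxali were 0.06 for receptor chains, 0.04 for modulators and 0.22 for targets, against 0.00 for all genes tested.

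**Figure D4:**
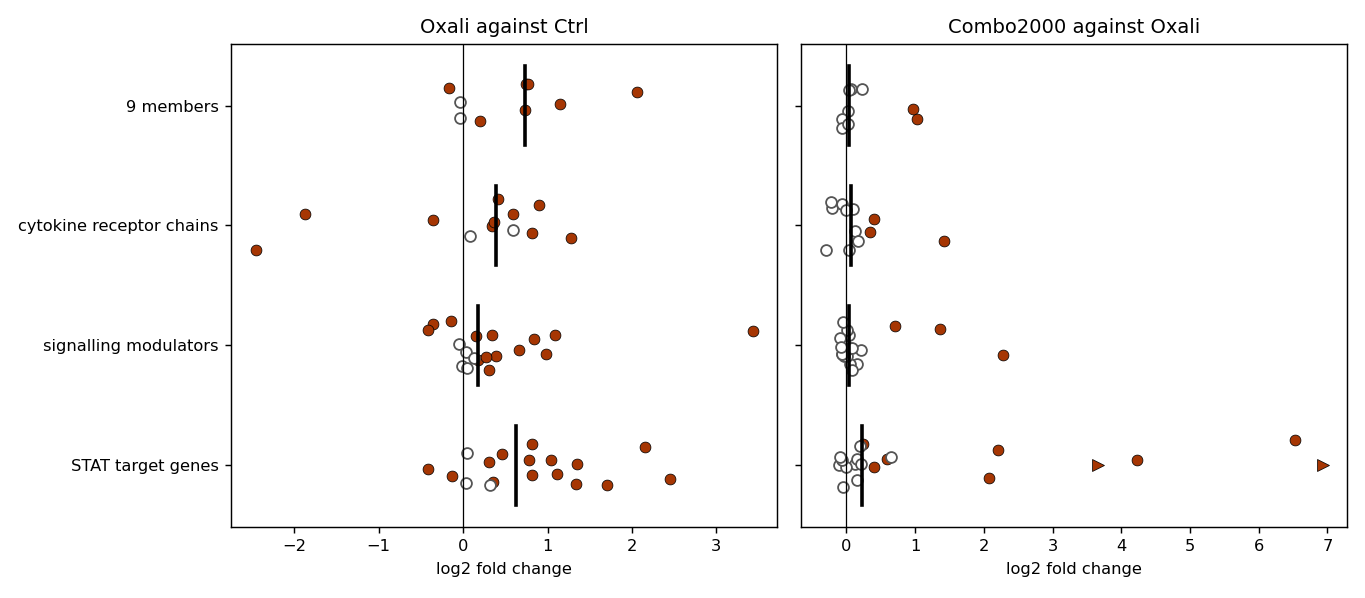
Log2 fold change (horizontal axis) of the genes in each list (rows) in Oxali against Ctrl (left) and Combo2000 against Oxali (right), filled where called, with the list median as a bar. Triangles are lower bounds for Nlrc5 and Ciita, which had at most 3 counts in Oxali and are not drawn on the left. Most Oxali changes spread on both sides of 0 with the members' median at 0.73, while on the right most points gather at 0 and a few genes reach far to the right.

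The genes beside the members were read as well. Around Ifngr2 on chromosome 16 lie the receptor genes Ifnar2, Il10rb and Ifnar1, and in Oxali against Ctrl these changed by 0.34, 0.36 and -0.36 on the log2 scale. On the other side Tmem50b rose by 0.83, Gm15964 was at 0.13 and not called, and Dnajc28 rose by 0.98 on 16 to 47 counts per library (0.62, adjusted p = 0.213, without Oxali replicate 2). Ifngr2 itself rose by 2.06. Of its 5 called neighbours 4 were higher, where 67.6% of all genes tested were called (34.8% higher, 32.8% lower). The Dnajc28 call was lost with DESeq2 (adjusted p = 0.0558). On chromosome 11 Stat5b, Stat5a and Stat3 lie side by side, and their changes in Oxali were -0.17, 1.15 and -0.03. In Combo2000 against Oxali only Stat3 of these 3 was called. Next to them Kat2a fell by 0.53 in Oxali against Ctrl, Ghdc rose by 0.40, and Rab5c was at -0.08 and not called. On the far side of Stat3, Cavin1 was at 0.06 and not called, Atp6v0a1 fell by 0.27 and Naglu by 0.89. In Combo2000 against Oxali, where 4.36% of all genes tested were called, Rab5c rose by 0.29. Cavin1 fell by 0.15 there, a call lost with the replicate block. Stat5a and Stat3 share 72 exon bases at their ends on opposite strands, and whether counting used the strand was not stated.

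**Figure D5:**
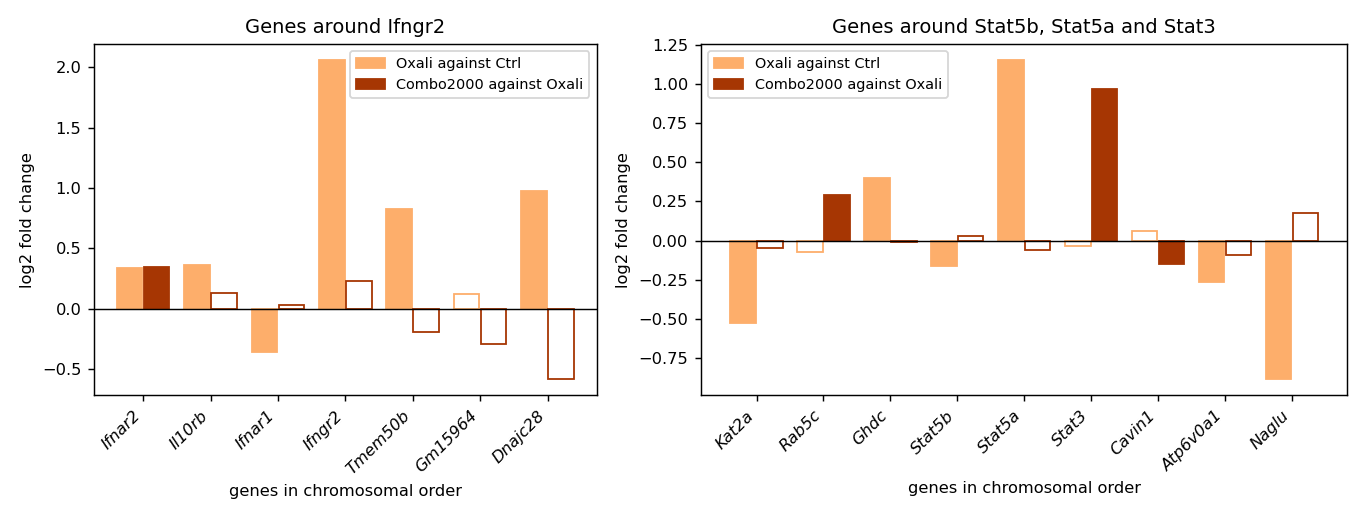
Log2 fold change (vertical axis, bars from 0, filled where called) of the genes around Ifngr2 (left) and around Stat5b, Stat5a and Stat3 (right), in chromosomal order, in Oxali against Ctrl and in Combo2000 against Oxali. Ifngr2 has the tallest Oxali bar of its row at 2.06. On the right Stat5a has the tallest Oxali bar, and its neighbour Stat3 has the tallest bar for Combo2000 against Oxali. Ghdc and Rab5c also have smaller called rises, in the first and the second comparison.

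Genes with the most similar pattern over the 12 libraries were sought among 10465 genes by Pearson's r of log2 CPM, as a description. Closest to Ifngr2 were Gdpd2 (0.996), Flywch2 (0.995) and Zfp68 (0.995), of which Flywch2 had the nearest size of change in Oxali (2.33, SE 0.22). Closest to Stat2 were Parp11 (0.992), Tlr3, a receptor for double-stranded RNA (0.988), and Herc6, an ISG15 ligase (0.983). Closest to Stat3 were Rnf31 (0.964), a subunit of the linear ubiquitin ligase, Parp9 (0.962) and Bst2, the virus-tethering protein tetherin (0.957). The 12 points share their libraries and fall into groups, so such values are high for many genes.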

How the data were processed

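The deposited values are raw read counts, 1 row per gene symbol, for the 12 libraries of Myc-CaP RNA (poly(A) RNA, stranded kit). Per the study's methods, reads were aligned to GRCm38 with STAR and counted with featureCounts against GENCODE models. The submitters' processing notes name STAR 2.7.3a and RSEM 1.3.0. Whether counting used the strand was not stated, and reads shared by similar genes may be lost or split.

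From these counts, edgeR 4.0.16 (R 4.3.3) was run with TMM scaling, filterByExpr (minimum count 10, minimum total 15) and the quasi-likelihood test, with 1 model of 6 group means over all 12 libraries and 14 contrasts. Calls required a Benjamini-Hochberg adjusted p under 0.05 over 13177 genes. The SE is the log2 change divided by the square root of F, and intervals use the fitted degrees of freedom. Lengths and coordinates came from a later GENCODE release on GRCm38, and length is the union of exons. The smallest count limit was 3 counts per library. Fits were tested on simulated data. DESeq2 1.42.0, other scalings and filters, the replicate number as a block, a correction for length and GC content, and leaving out each library were alternatives. The titles do not say whether replicate numbers pair libraries across groups, and the main fit did not pair them.

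The members and gene lists were chosen with earlier results of these data known. By the naming rule, all members were named, with the 3 largest called rises and falls of each list in Oxali and IFN2000 against Ctrl and Combo2000 against Oxali, list genes with a called interaction that a paragraph needed, the genes beside the members, and the 3 closest patterns. Of 4 further rows of these gene families, 2 did not pass the filter and 2 are not reported here.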

Additional observations from a re-analysis of the deposited data

Results flagged for a closer look

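The change caused by IFNγ differed with Oxali present, by the interaction term of the edgeR fit, for Stat2 at 2000 pg (0.93 on the log2 scale) and for Stat3 at 200 pg (0.36) and at 2000 pg (0.76). Both Combo libraries lay above both Oxali libraries in each case. In the IFNγ libraries without Oxali the log2 change against Ctrl was 0.10 for Stat2 at 2000 pg and 0.01 and 0.21 for Stat3 at 200 and 2000 pg. The value for Stat3 at 200 pg rests on libraries of Ctrl and IFN200 named above. Groups of 2 libraries are too small for a search for outlying libraries.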

How the results depend on the processing

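Across 22 alternatives the member changes kept their side of the threshold in 2715 cases. These include changes called in neither fit whose sign differed. In 38 cases the changes dropped below the threshold, in 15 they newly passed it and in 3 a change called in either fit reversed. The reversals were all Stat6 with library totals alone: 0.092 in Oxali against Ctrl, 0.10 in Combo2000 against Ctrl and 0.064 for the drug average. Over all genes the number called moved from 2221 to 1071 with the replicate block in IFN2000 against Ctrl, from 2943 to 1588 in IFN2000 against IFN200, from 574 to 331 in Combo2000 against Oxali (373 with DESeq2) and from 241 to 142 in Combo200 against Oxali. Without the filter it moved from 15 to 102 in IFN200 against Ctrl, from 92 to 262 in the interaction at 200 pg and from 359 to 785 in that at 2000 pg. With upper-quartile scaling 59.0% of the calls in the latter were higher, against 78.0%. The Oxali calls of Ifngr1, Ifngr2, Jak1, Jak2, Stat2 and Stat5a, and the rises of Stat2 and Stat3 in the combinations against Oxali, were kept under all 22. Of 2 members called in IFN2000 against Ctrl, 1 was called with upper-quartile scaling, DESeq2, only the groups compared, the replicate block, and the block with length and GC correction, and 0 to 2 when libraries were left out. Without single libraries, 0 to 3 were called in IFN2000 against IFN200 and 0 to 2 in the interaction at 200 pg, in which 2 were called with no filter and with only the groups compared. The modulators called in IFN2000 were 2 with DESeq2, with only the groups compared and with the replicate block, 3 with the length and GC correction with or without the block, and 2 to 5 without single libraries. In the interaction at 2000 pg, 1 modulator was called with no filter and 0 to 1 without single libraries, against 1 to 2 receptor chains and 2 to 6 targets. In Combo2000 against Oxali, 1 receptor chain was called with DESeq2 and 1 to 3 without single libraries. The cause of these shifts was not tested. Deviations of libraries with the same replicate number had r from -0.05 to 0.05 over 21 pairs. With 2 libraries in a group the deviations mirror each other, so these are not separate values. They do not show whether cultures were shared. The block took the calls of Jak2 in IFN2000 (adjusted p = 0.144), of Stat5a in IFN2000 against IFN200 (0.0787) and of Stat5b in Combo2000 against Ctrl (0.0855) and in Combo200 against IFN200 (0.135). Depth limits Ifngr2 most, on 17 to 30 counts in libraries without Oxali.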
